A study of Mus musculus with 33 samples.

Results

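The enzymes that write, maintain and remove DNA methylation were followed by RNA level in differentiating mouse embryonic stem (ES) cells. The 9 genes, taken by name from the 24391 genes of the deposited count table, were Dnmt1, Uhrf1, Dnmt3a, Dnmt3b, Dnmt3l, Tet1, Tet2, Tet3 and Tdg, and all 9 were present. The study holds 12 polyA RNA-seq libraries of 2 lines, the wildtype (WT) and RepB, both from a CAST/Ei × 129/Sv/Jae cross. RepB is, as background, the name of a repeat of Xist, the RNA that silences an X chromosome, and the labels used here do not describe the edit. Each line gave 1 library at day 0 and at days 5, 6, 7, 8 and 10, so neither line had replicate cultures, and how many clones each line stands for was not stated. Day 0 cells were undifferentiated ES cells cultured with LIF on irradiated feeder fibroblasts. For the later days the feeders were taken off, the cells formed embryoid bodies in suspension, and these were plated on gelatin at day 4.

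In mammals methyl groups sit mainly on the cytosine of CpG dinucleotides. Dnmt3a and Dnmt3b place them on unmethylated DNA, helped by Dnmt3l, a relative with no catalytic activity of its own. Dnmt1 copies the pattern after replication and is brought to hemimethylated DNA by Uhrf1. The Tet enzymes oxidise methylcytosine to hydroxymethylcytosine and further products, and Tdg excises the more oxidised forms so that repair restores cytosine. ES cells are known for high Tet1, Tet2 and Dnmt3l, and the epiblast that follows them for high Dnmt3b.

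The promoters of the 3 genes on which the results turn most are shown first, since the RNA of each changed strongly over the course. Of the 9 genes Dnmt3b had the largest rise from day 0 to day 5, Tet1 the largest fall from day 0 to day 10, and Dnmt3l the largest difference between the lines over days 5 to 10. Each window runs from 250 bases before to 50 bases after a RefSeq start in GRCm38.p6 and is written 5′ to 3′ on the strand of the gene, with each CpG in capitals.
Dnmt3b, chr2:153649199-153649498, plus strand: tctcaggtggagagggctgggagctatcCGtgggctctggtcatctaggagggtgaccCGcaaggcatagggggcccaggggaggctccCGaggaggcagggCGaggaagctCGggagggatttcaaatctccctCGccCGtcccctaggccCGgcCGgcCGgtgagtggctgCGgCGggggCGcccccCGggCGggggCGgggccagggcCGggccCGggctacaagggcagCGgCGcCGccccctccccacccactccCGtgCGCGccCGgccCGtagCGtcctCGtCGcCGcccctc
Dnmt3l, most 5′ of 3 starts, chr10:78042037-78042336, plus strand: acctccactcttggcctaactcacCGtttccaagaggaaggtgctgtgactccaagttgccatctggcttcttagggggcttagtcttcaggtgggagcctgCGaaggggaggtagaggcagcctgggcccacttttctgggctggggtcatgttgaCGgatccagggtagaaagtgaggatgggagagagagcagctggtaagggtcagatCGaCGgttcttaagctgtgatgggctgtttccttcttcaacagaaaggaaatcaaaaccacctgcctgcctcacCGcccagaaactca
Tet1, chr10:62887275-62887574, minus strand: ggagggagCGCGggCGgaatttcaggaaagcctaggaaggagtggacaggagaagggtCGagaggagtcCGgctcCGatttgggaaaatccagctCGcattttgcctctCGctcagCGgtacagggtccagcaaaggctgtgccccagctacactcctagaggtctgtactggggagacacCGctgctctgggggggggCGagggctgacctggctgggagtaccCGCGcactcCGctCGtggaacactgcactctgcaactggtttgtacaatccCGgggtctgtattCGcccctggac
The Dnmt3b window held 30 CpGs, the Tet1 window 17 and this Dnmt3l window 6. The other Dnmt3l starts had 4 and 3, and which start these cells used was not tested. Over all 32851 windows of 27025 genes the median was 7, and 26.5% held at least 20. All 9 genes had a window, 16 windows in all, of which 8 held at least 20 CpGs. Tet2 had 57, the most of the 16, while Tdg had 26 and Tet3 22. Genes with more than 1 start varied, from 2 to 33 in Dnmt1, from 12 to 33 in Uhrf1 and from 18 to 47 in Dnmt3a. The E2F motifs TTTCCCGC and TTTGGCGC, which occur in promoters of genes expressed in dividing cells, were searched on both strands. Either motif was found in 514 windows of the whole table (1.565%) and in 1 of the 16, a Dnmt1 window with TTTGGCGC. RNA data do not measure methylation or binding at these windows.

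The libraries held 3594551 (RepB day 8) to 17773138 counts (WT day 5), and WT was 2.07 to 3.35 times deeper than RepB over days 5 to 10. Levels are given as counts scaled to a common library total (CPM), and values in series follow the order of days 0, 5, 6, 7, 8 and 10. Of the 9 genes 8 had at least 116 counts in every library, and Tdg had 6 to 63. Markers of ES cells (10 of 10 detected in each library) summed to 7002 CPM in the WT library of day 0 and to 7858 CPM in that of RepB, and to 356 and 560 CPM at day 10, so the label of ES cells held at day 0. Fibroblast markers summed to 702 and 799 CPM at day 0, to 71.4 and 62.5 CPM at day 5, and to 9005 and 13489 CPM at day 10. Feeder RNA at day 0 was not separated here from fibroblast-like expression of the ES cells, and its part in the values of day 0 was not tested. In these bulk samples, fewer cells of a type and less RNA per cell cannot be told apart.

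Dnmt1, the maintenance methyltransferase, stayed abundant throughout. From day 0 to day 10 the WT libraries had 600, 612, 533, 579, 451 and 452 CPM of Dnmt1. The RepB libraries had 665, 573, 473, 524, 534 and 472 CPM. The highest of the 12 libraries had less than 1.5 times the level of the lowest, and the ranges of the lines overlapped. Uhrf1, the partner that reads hemimethylated CpGs, was lower at days 8 and 10 than on any earlier day in both lines. WT libraries had 256, 241, 242, 242, 144 and 135 CPM of Uhrf1 from day 0 to day 10. RepB libraries had 252, 225, 211, 210, 156 and 115 CPM. In WT the step down fell between days 7 and 8. RepB went down more gradually, with falls both from day 7 to day 8 and from day 8 to day 10.

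The de novo enzymes followed separate courses. Dnmt3a in WT was at 163 CPM at day 0, 330 at day 5, then 231, 196 and 170 at days 6, 7 and 8, and 278 CPM at day 10. The RepB values were 179, 327, 183, 182, 164 and 320 CPM. Dnmt3a was thus high at days 5 and 10 and lower in between in both lines. Dnmt3b, the other de novo enzyme, moved over a much wider range. WT had 128, 1416, 1082, 549, 238 and 71.4 CPM of Dnmt3b. RepB had 146, 1115, 608, 369, 198 and 78.5 CPM. The peak was at day 5 in both lines, 11.03 times the day 0 level in WT and 7.64 times in RepB, and day 10 was below day 0.

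Dnmt3l, the cofactor, fell from the start. WT held 334 CPM at day 0 and 137, 74.8, 46.2, 36.1 and 20.9 CPM later. RepB held 278 CPM at day 0 and 190, 158, 102, 49.2 and 31.0 CPM later. RepB was below WT at day 0 and above it on each of the 5 later days.

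Tet1 and Tet2, the oxidising enzymes of ES cells, dropped by day 5 and then parted. Tet1 in WT went from 1176 CPM at day 0 to 338, 228, 194, 58.3 and 64.6 CPM. In RepB it went from 1071 CPM to 389, 222, 190, 105 and 71.5 CPM. Tet1 fell through to day 8 in WT and to day 10 in RepB. Tet2 began at 360 CPM in WT and then measured 57.5, 30.4, 31.5, 15.7 and 64.4 CPM. It began at 411 CPM in RepB and then measured 68.1, 41.0, 47.4, 42.3 and 80.6 CPM. Tet2 was higher at day 10 than at any of days 5 to 8 in either line. Tet3, known for its role in oocytes and in differentiated tissues, was lowest at day 8 in WT and at day 6 in RepB. WT libraries held 102, 91.2, 77.9, 105, 76.3 and 175 CPM of Tet3. RepB libraries held 112, 72.7, 45.6, 73.6, 131 and 179 CPM. Day 10 was the highest library of each line.

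Tdg, the glycosylase of the demethylation pathway, was near the limit of the depth. WT counts were 21, 52, 63, 25, 14 and 17, which is 1.24 to 4.37 CPM. RepB counts were 34, 15, 12, 10, 7 and 6, or 1.60 to 2.83 CPM. The exact Poisson 95% interval of the WT day 6 value was 3.36 to 5.59 CPM and that of the RepB day 6 value 0.889 to 3 CPM, counting error only. Tdg has close pseudogene copies in the mouse, and whether reads with several matches were counted is not given in the sources used here, so these low values are uncertain.

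**Figure D1:**
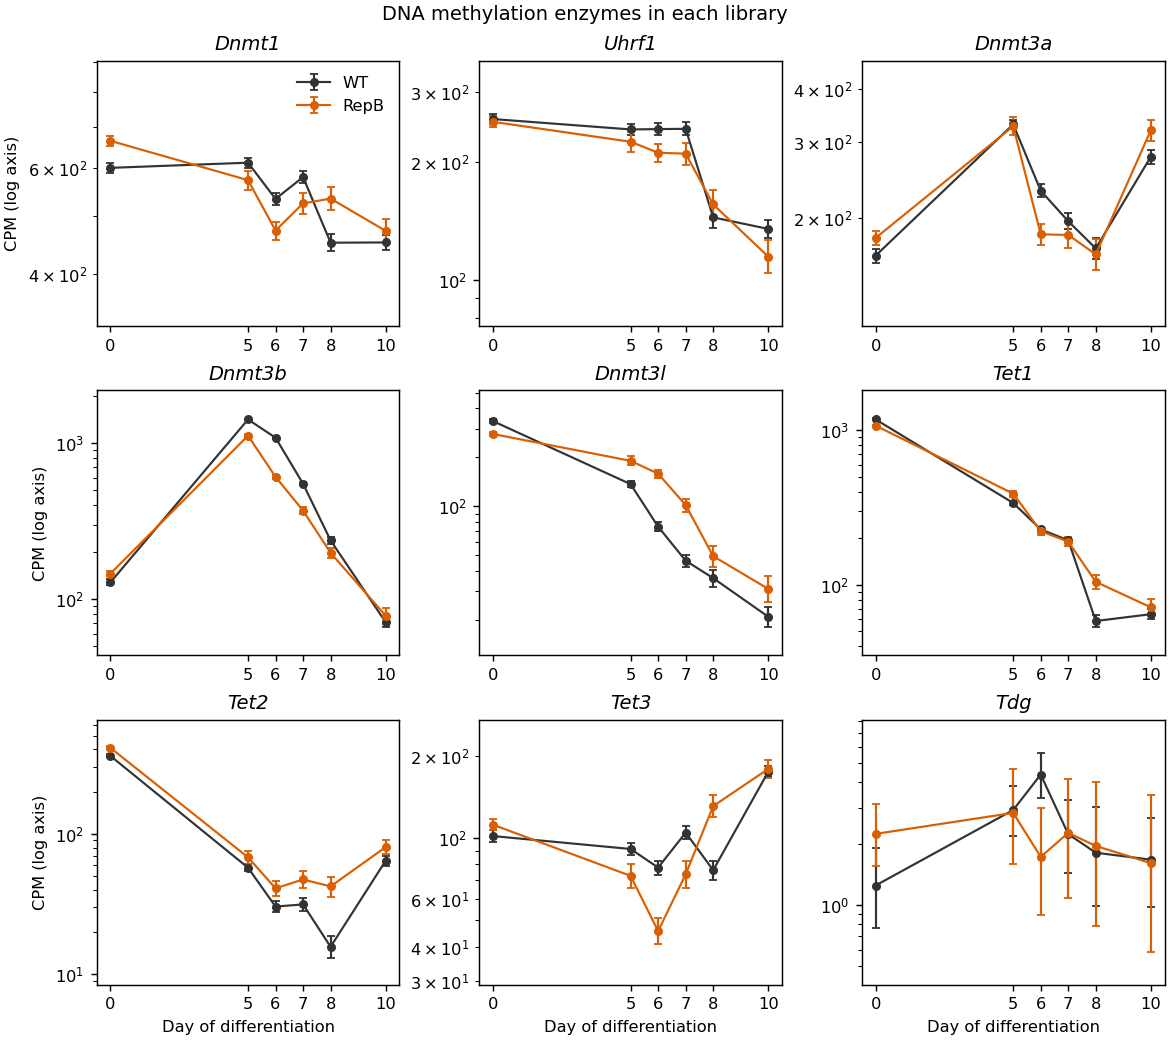
Level of each of the 9 genes in every library, in CPM on a log axis against day, for WT (black) and RepB (orange). Points are single libraries and bars are exact Poisson 95% intervals, which cover counting error only. Dnmt3b peaked at day 5 in both lines, and RepB lay above WT for Dnmt3l at each of days 5 to 10.

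Genes were compared with each other on a scale that divides by exon length (TPM). At day 0 the top 3 were Dnmt3l, Dnmt1 and Tet1 in WT (341, 260 and 228 TPM), and Dnmt1, Dnmt3l and Tet1 in RepB (287, 283 and 207 TPM). From day 5 to day 7 Dnmt3b led in both lines, with 866 TPM in WT and 671 TPM in RepB at day 5. Dnmt1 led at days 8 and 10, and at day 10 stood at 194 TPM in WT and 205 TPM in RepB. Tdg was last in all 12 libraries, at 1.05 to 3.63 TPM. With 1 library a point, neighbours in these orders have no spread to be judged by, and at day 0 the order of Dnmt1 and Dnmt3l differed between the lines.

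The length-scaled ratio of Dnmt3b to Dnmt3a was 1.81 in WT and 1.87 in RepB at day 0. It reached 9.85 and 10.8 at days 5 and 6 in WT and 7.84 and 7.64 in RepB. By day 10 it was 0.591 in WT and 0.564 in RepB, so that Dnmt3a was then the more abundant of the pair. The ratio of Tet1 to Tet3 went the same way without the rise. It was 8.95 in WT and 7.41 in RepB at day 0, 1.44 and 2.00 at day 7, 0.593 and 0.618 at day 8, and 0.286 and 0.309 at day 10. Tet1 made up 63.3% of the summed Tet TPM in WT and 58.0% in RepB at day 0, against 16.6% and 16.8% at day 10. Tet3 went from 7.07% and 7.83% to 58.0% and 54.3%. Both crossings fell between the same days in the 2 lines. They are descriptions with no test.

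**Figure D2:**
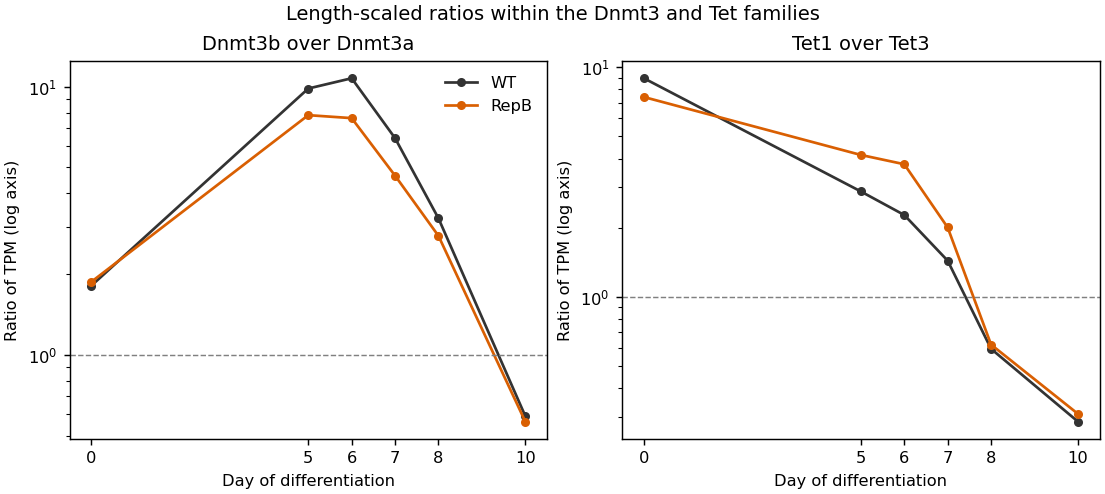
Ratio of TPM of Dnmt3b to Dnmt3a (left) and of Tet1 to Tet3 (right), on a log axis against day, 1 library per point. The dashed line marks equal levels. Dnmt3b over Dnmt3a dropped below 1 between days 8 and 10, and Tet1 over Tet3 between days 7 and 8, in both lines.

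The change from undifferentiated cells was tested by edgeR's quasi-likelihood test and a gene passed with an adjusted p under 0.05 (Benjamini-Hochberg over the 15179 genes in the fit). Values are log2 fold changes ± SE. Day 0 was compared with the ends of the later course, taking both lines together, a comparison added after the values had been seen. With 1 library per line and day, the spread in this fit is that between the courses of the 2 lines. A p here says nothing of other cultures. At day 5, 2 of the 9 genes were higher and 3 lower, where 21.4% of all genes were higher and 23.6% lower. Dnmt3b was higher by 3.19 ± 0.22 (adjusted p = 9.19e-08) and Dnmt3a by 0.96 ± 0.15 (0.000132). Lower were Tet2 (-2.59 ± 0.22, 6.61e-07), Tet1 (-1.62 ± 0.19, 1.35e-05) and Dnmt3l (-0.95 ± 0.24, 0.00446). Dnmt1, Uhrf1, Tet3 and Tdg did not pass, with adjusted p of 0.688, 0.529, 0.276 and 0.192.

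At day 10, 2 of the 9 genes were higher than at day 0 and 6 lower, against 33% and 31.8% of all genes. Tet1 was lower by 15.3 times (log2 -3.94 ± 0.22, adjusted p = 1.59e-09) and Dnmt3l by 11.5 times (-3.52 ± 0.27, 4.25e-08). Tet2 was at -2.30 ± 0.22 (4.83e-07), Uhrf1 at -0.92 ± 0.14 (4.75e-05) and Dnmt3b at -0.79 ± 0.22 (0.00539). Dnmt1 passed narrowly (-0.35 ± 0.15, 0.0498) and did not pass without day 7 (0.0674). The higher genes were Dnmt3a (0.91 ± 0.15, 8.31e-05) and Tet3 (0.83 ± 0.27, 0.0128). Tdg did not pass (0.02 ± 0.51, 0.978). Markers of dividing cells summed to 5447 and 5280 CPM at day 0 and to 3476 and 3443 CPM at day 10 in WT and RepB. Their part in the lower Dnmt1 and Uhrf1 was not tested.

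**Figure D3:**
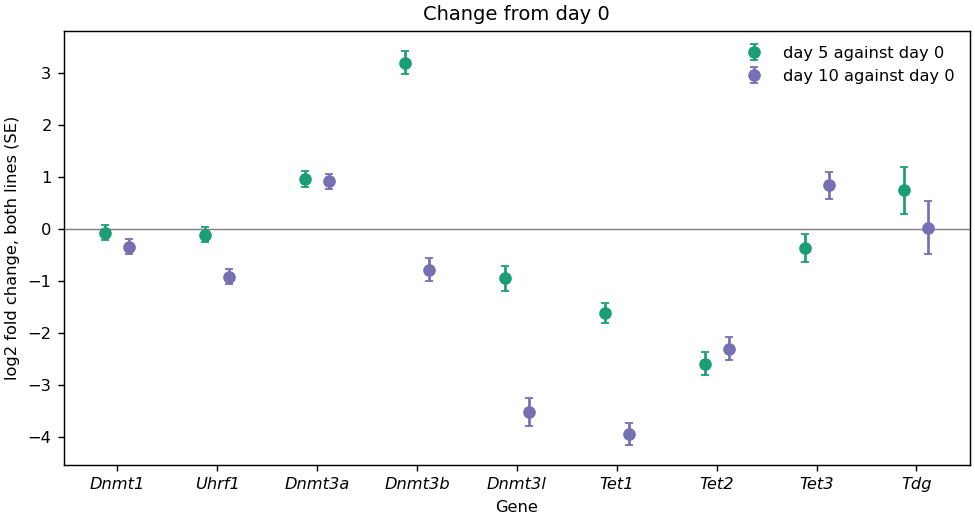
Log2 fold change of each gene from day 0 to day 5 (green) and to day 10 (purple) over both lines, with bars of ± SE from the edgeR fit. Dnmt3b was 3.19 above day 0 at day 5 and 0.79 below it at day 10, while Tet1, Tet2 and Dnmt3l were below it at both.

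Taken over all of days 5 to 10, only falls passed the test, since a course that rises and falls again counts there as spread. Over both lines 0 of the 9 genes were called higher and 3 lower, against 12.4% and 13.1% of all genes. The 3 were Tet2 (-2.96 ± 0.37, adjusted p = 0.000682), Tet1 (-2.55 ± 0.56, 0.00962) and Dnmt3l (-1.85 ± 0.59, 0.0435). Leaving out day 6, 7 or 8 ended the Dnmt3l call, with adjusted p of 0.0651 to 0.106. Dnmt3b had a log2 fold change of 2.08 (4.22 times) with an SE of 1.13 and an adjusted p of 0.196. Within single lines only Tet2 passed, in WT (-3.08 ± 0.52, 0.00892) and in RepB (-2.84 ± 0.53, 0.0167). The backgrounds were 3.89% higher and 6.15% lower in WT and 1.75% higher and 3.03% lower in RepB. The RepB call of Tet2 was lost without day 6 (0.0601) or day 7 (0.0731).

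Along days 5 to 10, 5 of the 9 genes had a slope past the threshold, 4 downward and 1 upward. Of 12948 genes tested, 26.6% sloped down and 27.9% up, and the count is read against those shares. Dnmt3b fell by a factor of 1.75 per day (log2 -0.81 ± 0.04, adjusted p = 1.30e-06). Dnmt3l sloped by -0.52 ± 0.04 (6.20e-06), Tet1 by -0.48 ± 0.06 (0.000125) and Uhrf1 by -0.17 ± 0.03 (0.00166). Tet3 rose by 0.28 ± 0.06 per day (0.00366). Uhrf1 and Tet3 did not pass without day 10, with adjusted p of 0.0776 and 0.238. Dnmt3a (0.01 ± 0.07, 0.891) and Tet2 (0.08 ± 0.09, 0.471) bent rather than sloped: without day 10 their slopes were -0.28 (0.00450) and -0.34 (0.0230). Without day 5 they were 0.16 (0.0447) and 0.27 (0.0327). Dnmt1 (-0.04 ± 0.03, 0.308) and Tdg (-0.17 ± 0.08, 0.0930) did not pass.

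RepB was then compared with WT over days 5 to 10, with each day as a block. With 1 culture per line, a p here reflects only whether a difference held from day to day, and says nothing of other cultures or clones. Of the 9 genes 1 was higher in RepB and 0 lower, where 1.51% of 15179 genes were higher and 0.771% lower. An unadjusted p under 0.05 was reached by 3 of the 9 and by 2271 of the 15179 genes, and DESeq2 called 2 of the 9 and 357 genes in all. Dnmt3l was higher by 0.78 ± 0.12 (1.72 times, adjusted p = 0.00691) and on 5 of 5 days. Its log2 RepB/WT ratio was 0.48, 1.08, 1.13, 0.44 and 0.56 at days 5, 6, 7, 8 and 10, so the gap was widest at days 6 and 7. At day 0 it was -0.26, from 1 library each. Without day 7 the Dnmt3l difference was 0.68, with an adjusted p of 0.0541. With no day term in the fit no gene of the table passed.

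Tet2 was also higher in RepB on 5 of 5 days but did not pass (0.58 ± 0.15, adjusted p = 0.0685). The ratios were 0.24, 0.43, 0.58, 1.40 and 0.32 in day order, highest at day 8. Without day 8 the Tet2 difference was 0.39 and passed (0.0128), and it also passed by DESeq2 (0.61, 0.00435). Of the later days, Tet1 (0.84) and Tet3 (0.78) had their highest ratios that day too, as did Dnmt1 (0.24), Uhrf1 (0.11) and Tdg (0.09). The WT library of day 8 was low beside those of days 7 and 10 for Tet2 (31.5, 15.7 and 64.4 CPM), whereas RepB had 47.4, 42.3 and 80.6 CPM. Some other genes were low in it as well. Mki67, a gene of dividing cells, had 1207, 560 and 785 CPM in WT and 1210, 1101 and 911 CPM in RepB. Top2a, also of dividing cells, had 932, 739 and 798 CPM in WT. In WT Cdk1 (186, 279 and 250 CPM), Ccna2 (283, 352 and 294 CPM), Ccnb1, Mcm6 and Pcna were instead higher at day 8 than at day 7 or 10. The 10 markers of dividing cells summed to 4749, 3998 and 3476 CPM in WT. Nsd1, a histone methyltransferase of the partner list, had 388, 201 and 288 CPM in WT and 337, 278 and 275 CPM in RepB. The RepB library of day 8 had blood and endothelium markers, with the embryonic globin genes among them, that summed to 829 CPM against 135 CPM in WT, and fibroblast markers at 2892 against 1368 CPM. The part of these differences between the day 8 libraries in the Tet values was not tested. Nsd1 and the single genes of dividing cells were chosen after their values were seen.

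Dnmt3b was lower in RepB on 4 of 5 days, with ratios of -0.34, -0.83, -0.57 and -0.26 at days 5 to 8 and 0.14 at day 10. The fit gave -0.37 ± 0.12 and did not pass (adjusted p = 0.156), though it did without day 8 (-0.43, 0.0411). Tet1 was at 0.23 ± 0.12 (0.419), Uhrf1 at -0.11 ± 0.09 (0.624) and Tet3 at -0.14 ± 0.18 (0.795). Dnmt3a (-0.04 ± 0.09, 0.8998) and Dnmt1 (0.00 ± 0.09, 1.00) had the smallest differences. Tdg was at -0.33 ± 0.30 (0.663), a value set mostly by day 6. At day 0 the 8 genes other than Tdg lay between -0.26 (Dnmt3l) and 0.19 (Tet2).

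**Figure D4:**
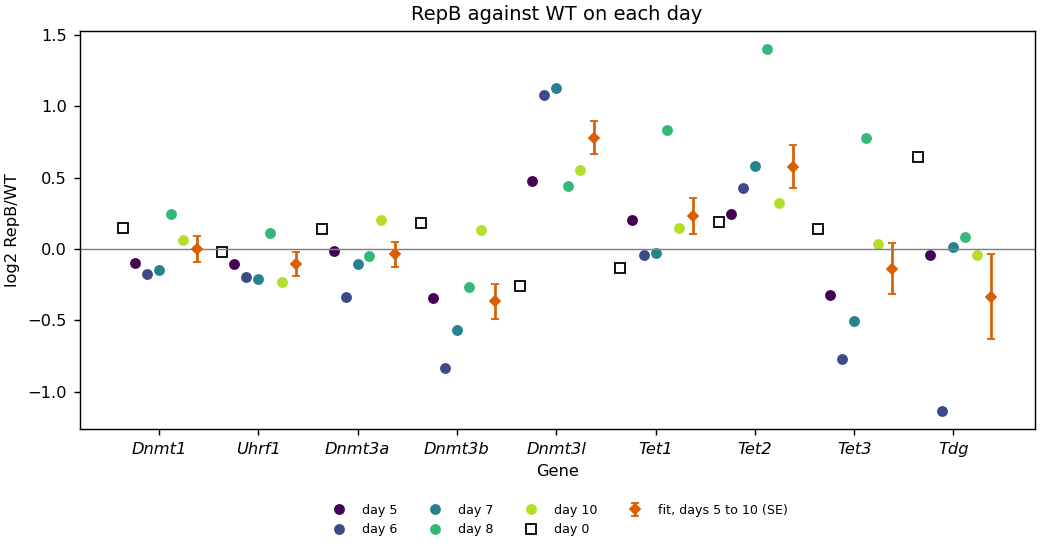
Log2 RepB/WT ratio of each gene on each day (filled circles by day, open squares for day 0, pseudocount 0.5 CPM), with the fitted difference over days 5 to 10 as an orange diamond ± SE. Dnmt3l and Tet2 lay above 0 on all 5 later days. Of those days, Tet2, Tet1, Tet3, Dnmt1, Uhrf1 and Tdg were highest at day 8.

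The same lines differed in the ES cell markers over those days. Of the 10 markers 5 were higher in RepB (Nanog, Zfp42, Esrrb, Klf2 and Dppa5a) and 0 lower, with a median log2 difference of 0.45 beside -0.002 over all genes, of which 1.51% were higher and 0.771% lower. Their summed level in RepB and WT was 4114 and 3309 CPM at day 5, 3039 and 2356 CPM at day 6, and 1334 and 983 CPM at day 7. It was 748 and 589 CPM at day 8, and 560 and 356 CPM at day 10. Dnmt3l, itself high in ES cells, was also higher in RepB on each of those days. At day 0 the markers were higher in RepB (7858 against 7002 CPM in WT), while Dnmt3l was lower (278 against 334 CPM). The part of the ES cell markers in the Dnmt3l difference was not tested. Other markers differed too. Of 6 neural markers 3 were lower in RepB (Sox1, Pax6 and Map2; median -0.32), and of 10 fibroblast markers 2 were higher (Col3a1 and Postn; median 0.48). Of 6 blood and endothelium markers 1 was higher (Pecam1; median 1.14), and of 6 endoderm markers 1 (Ttr; median 0.01). Pecam1 was highest at day 0 in both lines (194 CPM in WT and 173 CPM in RepB), so here it does not mark blood and endothelium alone. Of 5 germ cell markers 2 were higher (median 0.96). The 10 markers of dividing cells, 6 of mesoderm and 6 of heart muscle had none called, with medians of -0.02, -0.10 and -0.29. None of these was tested for its part in the values of the 9 genes.

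Whether the lines differed more after differentiation than before was tested as the difference over days 5 to 10 less that at day 0. By edgeR 0 of the 9 genes passed, with 1 at an unadjusted p under 0.05, and 0 passed by DESeq2. Of all genes 0.0198% were higher and 0.0132% lower, so few calls of any kind were made. Dnmt3l was at 0.98 ± 0.26 (adjusted p = 0.327) and passed without day 8 (1.03, 0.0476). Dnmt3b was at -0.62 ± 0.29 (0.566). Slopes per day were also compared between the lines. None of the 9 genes passed by edgeR or DESeq2, 0 had an unadjusted p under 0.05, and 0% of genes were called in either direction (0 of 12948, 200 at an unadjusted p under 0.05). The slope differences of the 9 genes ran from -0.03 (Dnmt3l) to 0.15 (Tet3).

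The authors' cas and mus columns, taken to stand for the CAST/Ei and the 129/Sv/Jae allele, gave the share of each gene's allelic counts. Dnmt1 was the only one of the 9 genes with similar counts from both. Its cas share was 51.6% in WT (Clopper-Pearson 95% interval 49.6 to 53.5) and 52.3% in RepB (50.5 to 54.2) at day 0. Over days 5 to 10 the WT share averaged 51.2% ± 1.56 and the RepB share 51.1% ± 2.66 (SD over 5 days). The log2 odds ratio of RepB to WT over those days was 0.003 ± 0.077 (edgeR adjusted p = 1.00), and that of the later days against day 0 was -0.04 ± 0.10 (0.858). The other genes were read mostly as mus, in both lines and already at day 0. The reason is not known here, so their low cas shares are not read as expression of the mus allele alone. Dnmt3b had the highest of their cas shares, at 6.49% to 12.6%. Uhrf1 had 2.64% to 7.41%, Dnmt3a at most 4.62%, Tet1 at most 4.17% and Tet3 at most 4.11%. Dnmt3l reached 2.86% and Tet2 0.787%, and Tdg had 0 to 4 allelic counts in a library. The allele test took genes whose day 0 share lay between 25% and 75%, so these 8 were not tested. At day 0 and day 5 the Dnmt3b share was 8.73% (7.16 to 10.5) and 11.3% (10.8 to 11.9) in WT, but 12.6% (10.7 to 14.6) and 9.04% (8.02 to 10.1) in RepB.

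Genes with the nearest course were sought among 11379 genes of at least 5 CPM, by the root mean square difference of centred log2(CPM + 0.5) over the 12 libraries. Nearest to Dnmt3l were Fbxo15 (0.169), Gm6083 (0.176) and Dppa4 (0.177), of which Fbxo15 and Dppa4 are known as ES cell genes. For Dnmt3b they were Mapk4 (0.368), Pou3f1 (0.432) and Otx2 (0.433), the last 2 being transcription factors known in the epiblast. Dnmt3b itself spread by 1.44 on that scale, so its neighbours were close to it but less so than those of Dnmt3l. Tet1 was nearest to Camk1d (0.222), Slc28a1 (0.280) and Camk2b (0.304). Tet2 was nearest to Pde8a (0.242), Abca1 (0.296) and Irak3 (0.404), and Tet3 to Megf9 (0.175), Snx30 (0.185) and Nlgn2 (0.190). Dnmt3a followed Dusp7, Srd5a1 and Sesn3 at 0.185 to 0.213. Dnmt1, which spread by 0.176, and Uhrf1, which spread by 0.387, had the closest matches. Those of Dnmt1 were Phrf1, Rexo1 and Pcbp2 (0.0515 to 0.0870) and those of Uhrf1 were Nup205, Smpd4 and Xpo7 (0.0954 to 0.106). For Tdg they were Rhot2, Peli2 and Zgpat, where counting error in Tdg itself is large. Among the 9 genes Dnmt1 and Uhrf1 were the closest pair (0.270), but that distance is larger than the spread of Dnmt1 itself (0.176). The measure is not scaled by spread, so genes that change little come out close. Tet1 and Dnmt3l followed each other at 0.480. All libraries share days and depth, and these are descriptions.

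The genes around the 9 enzymes were read from 5 lists. Of 18 partners and regulators of the methyltransferases, 2 were higher in RepB over days 5 to 10 and 0 lower, with a median of 0.005, beside 1.51% higher and 0.771% lower among all genes. Dppa3, which keeps Uhrf1 from chromatin, was at 69.5 and 62.1 CPM in RepB at days 5 and 6 against 47.3 and 22.2 CPM in WT. Its fitted difference was 0.91 ± 0.18 (adjusted p = 0.0240). Prdm14, a naive-state factor that represses Dnmt3b and Dnmt3l, was at 22.1 and 15.3 CPM in RepB and 12.2 and 6.94 CPM in WT on those days (0.80 ± 0.17, 0.0337). Without day 6, or without day 7, neither passed. From day 0 to day 10, 11 of the 18 fell and 2 rose, against 31.8% and 33% of all genes. Prdm14 fell by 4.18 on the log2 scale. Hells, the remodeller needed for normal methylation, fell by 1.48, and its partner Cdca7 by 1.03. Zfp57, which guards imprinted methylation, fell by 1.71. At day 5, 5 of the 18 were above day 0 and 2 below it, against 21.4% and 23.6% of all genes. Among those above were Dppa3 (1.42 ± 0.31), Cdca7l (1.26 ± 0.15) and Hells (0.46 ± 0.15). The 2 below were Zfp57 (-2.16 ± 0.14) and Prdm14 (-2.17 ± 0.25).

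Of 12 germline genes known to be repressed by promoter methylation 11 were tested, and 5 were higher in RepB and 0 lower, with a median of 0.96. Over all genes 1.51% were higher and 0.771% lower, with a median of -0.002. Sohlh2, a germ cell transcription factor, was higher by 1.22 ± 0.17 (adjusted p = 0.00562). Hormad1, of the meiotic chromosome axis, was higher by 1.203 ± 0.21 (0.0138) and Dazl, an RNA-binding protein of germ cells, by 1.15 ± 0.26 (0.0406). Tex19.1 (0.89 ± 0.20, 0.0413) and Tuba3a (0.70 ± 0.16, 0.0440) completed the 5. These genes are expressed in ES cells too: at day 0 Sohlh2 had 110 (WT) and 103 CPM (RepB), and at day 10 it had 4.02 and 7.21 CPM. By day 10 all 11 tested were called below day 0, against 31.8% of all genes. In this list the count in RepB ran from 1 without day 6 or day 7 to 7 without day 8, it was 2 after thinning to equal depth and 0 with no day term, and 8 with no filter on low counts. Dazl and Tex19.1 are also on the germ cell marker list, which summed to 41.8 CPM in RepB and 15.9 CPM in WT at day 6, and the part of such cells was not tested.

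The remaining lists had no gene past the threshold between the lines by edgeR or DESeq2. Of 10 methyl-CpG readers 0 were called and 4 had an unadjusted p under 0.05, beside the 2271 of 15179 genes given above. Among the more abundant, Mbd3 was at -0.07 ± 0.07, Mbd6 at -0.06 ± 0.10 and Mbd4 at -0.03 ± 0.10. From day 0 to day 10, 3 of the 10 rose and 1 fell, against 33% and 31.8% of all genes. Mbd2 (2.48 ± 0.17), Zbtb4 (2.18 ± 0.21) and Mbd3 (0.63 ± 0.14) rose, and Mbd4 fell (-0.70 ± 0.17). Of 15 genes of excision repair and its accessories 0 were called and 3 had an unadjusted p under 0.05. Parp1 (0.09 ± 0.08), Lig1 (-0.02 ± 0.07), Apex1 (0.03 ± 0.11) and Lig3 (0.08 ± 0.09), which act after a base is removed, lay near 0. From day 0 to day 10, 4 of the 15 rose and 4 fell, against 33% and 31.8% of all genes. Those that rose were Gadd45g (2.33 ± 0.30), Neil3 (0.89 ± 0.19), Gadd45b (0.81 ± 0.18) and Nthl1 (0.53 ± 0.16). Those that fell were Parp1 (-1.28 ± 0.13), Gadd45a (-0.998 ± 0.20), Lig3 (-0.61 ± 0.14) and Lig1 (-0.59 ± 0.14). Of 8 genes of methyl donor and cofactor metabolism 0 were called, and 0 had an unadjusted p under 0.05. Mat2a, which makes the methyl donor S-adenosylmethionine, was 1.32 ± 0.15 above day 0 at day 5 (adjusted p = 7.35e-06). Its highest library was that of day 6 in WT (382 CPM) and that of day 5 in RepB (441 CPM). Idh1 and Idh2, which make the cofactor of the Tet enzymes, were lower at day 5 (-0.76 ± 0.14 and -0.65 ± 0.14). Mat2a, Idh1 and Idh2 were the genes of the list called at day 5, 1 of 8 higher and 2 lower, against 21.4% and 23.6% of all genes.

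**Figure D5:**
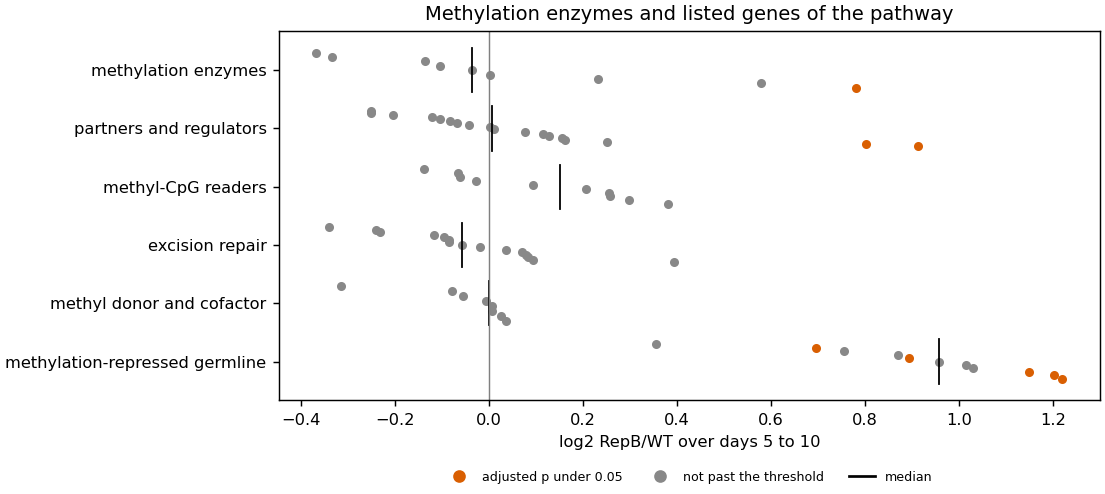
Fitted log2 RepB/WT over days 5 to 10 for the 9 methylation enzymes and for the tested genes of each list, 1 point per gene. Orange points passed the adjusted threshold of 0.05 and black lines are medians. Called genes were Dnmt3l, 2 partners and regulators and 5 germline genes, all above 0.

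Positions are those of the first exon listed for each gene in the deposited table (mm9). Dnmt1 is at chr9:20711650-20712005 and Uhrf1 at chr17:56442760-56442984. The Dnmt3 genes are at chr12:3806980-3807120 (Dnmt3a), chr2:153475185-153475476 (Dnmt3b) and chr10:77505032-77505133 (Dnmt3l). The Tet genes are at chr10:62267318-62276160 (Tet1), chr3:133126641-133131154 (Tet2) and chr6:83312368-83319819 (Tet3), and Tdg is at chr10:82092583-82092783. Counts were summed over all exons of a gene, so the short and long isoforms known for Dnmt3a, Dnmt1 and the Tet genes could not be told apart. RefSeq lists an antisense gene at Dnmt3a, and no source used here says whether the counting used strand, so Dnmt3a counts may hold reads of both.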

How the data were processed

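The deposited table holds raw counts per gene, which the authors made without normalization, and the summed exon length in bases; the submitters' processing notes name featureCounts, TopHat, Novoalign, bedtools, SAMtools and mm9, with versions and roles not given in the sources used here. Total, cas and mus counts of the 12 RNA libraries were used. A further 6 count columns had no matching RNA sample and were not used here. The 21 ChIP and input samples were not analysed here.

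Counts were fitted in R 4.3.3 with edgeR 4.0.16 (TMM, filterByExpr on line-by-stage groups, quasi-likelihood F test). RepB against WT used days as blocks and separate line effects at day 0 and later (4 residual degrees of freedom). Days 5 to 10 against day 0 used 4 line-by-stage groups (8), slopes used the 10 later libraries (7, or 6 for their difference), and single days against day 0 used line and day as factors (5). No replicate cultures exist, and in all fits the spread is that between days and lines. The common dispersion was 0.0150. SE is the size of the log2 fold change over the root of F. Ratios per day used a pseudocount of 0.5 CPM. The cas share was tested where allelic counts averaged 20 or more and a day 0 share of 25% to 75%. Scripts were tested on simulated data. The alternatives were RLE size factors, no filter, DESeq2 1.42.0, thinning to 3594551 counts, no day term, a day-blocked fit and leaving out each day. The 9 genes and all lists were chosen with earlier results of these data known, and all 9 genes are named. Listed genes are named if past the threshold between lines, otherwise the 4 most abundant, 1 of which is not reported here; those named for changes over time were chosen after their values were seen.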

Additional observations from a re-analysis of the deposited data

How the results depend on the processing

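The number of the 9 genes called between RepB and WT over days 5 to 10, which was 1, became 2 with no low-count filter, 2 with DESeq2, 2 after thinning to the smallest library and 0 with no day term. It ran from 0 (without day 7) to 3 (without day 8) when a day was left out. Over all genes the 346 calls ran from 38 to 744 when a day was left out and from 0 to 592 under the other settings. The difference less that at day 0 had 0 genes called and 0 to 1 without a day. Days 5 to 10 against day 0 had 3 genes called and 6 in the day-blocked fit, which added Dnmt3b, Dnmt3a and Uhrf1. In WT alone the count of 1 became 2 with DESeq2 and ran from 1 to 3 without a day (3 without day 5). In RepB alone it ran from 0 to 2. The number of all genes called was 3871 over both lines (3320 to 9724), 1524 in WT (1156 to 2769) and 725 in RepB (559 to 1947) under settings other than leaving out a day. The counts of 5 for the slope, 0 for the difference of slopes, 5 at day 5 and 8 at day 10 moved by less than 1.5 times in each setting run.

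Signs changed only in values that did not pass in the fits as reported. For RepB against WT, Dnmt1 was at -0.00588 with no filter, at -0.00269 with no day term and at -0.0848 to 0.0385 without a day. Dnmt3a ran from -0.10 to 0.0332, Tet3 from -0.38 to 0.0145 and Tdg from -0.44 to 0.0196. Tet3 over days 5 to 10 against day 0 was at -0.017 with RLE factors, -0.016 with DESeq2, -0.017 after thinning, -0.085 in the day-blocked fit and -0.28 to 0.12 without a day. Slopes ran from -0.28 to 0.16 in Dnmt3a and from -0.34 to 0.27 in Tet2, each past the threshold in both directions. Tdg at day 10 was at -0.010 with RLE factors, -0.014 with DESeq2, -0.11 after thinning and -0.0285 to 0.0466 without a day. The log2 odds ratio of the Dnmt1 cas share between lines ran from -0.055 to 0.037. The cause was not tested. Dnmt3l over days 5 to 10 against day 0 had an adjusted p of 0.0533 with no filter. The depth limits Tdg most, with 6 counts in its smallest library.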
